A study of Homo sapiens and Mus musculus with 66 samples.

Results

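Shared nonLADs of K562 cells are the stretches of the genome that were depleted of lamin-B1 signal by both TSA-seq and cTSA-seq. The deposited list of these stretches held 384 regions, of which 383 lay on chromosomes 1 to 22, X and Y of the hg19 build and were all kept; 1 lay on unplaced sequence. They were chosen from K562 data alone, and the question here was which of them were called lamina-associated domains (LADs) in HCT116 cells at each point of the cell cycle. Together they made up 383 of the 5781 regions in the 4 K562 comparison lists and 10 condition lists considered, and covered 645.2 Mb in 6458 windows of 100 kb, or 20.8% of chromosome length.

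Lamin-B1 cTSA-seq labels chromatin near the nuclear lamina: cells are stained for lamin-B1, a secondary antibody brings horseradish peroxidase to it, and the enzyme attaches biotin-tyramide to nearby protein and DNA. The chromatin is then sheared and pulled down with streptavidin, and its DNA is sequenced beside the input. TSA-seq uses the same reaction but pulls down purified DNA. K562 is a human leukaemia line and HCT116 a human colorectal cancer line, and the labels name no engineered change in either. The K562 regions combined cTSA-seq of unsorted cells (2 input and 2 pull-down libraries) with TSA-seq of K562 published earlier with another lamin antibody, whose libraries are not part of this series. Early and later G1 HCT116 cells were arrested in mitosis with nocodazole (16 h in the labels, somewhat longer in the study's methods), shaken off, released for 90 min (90m G1) or 180 min (180m G1) and sorted for G1 DNA content, so both groups had passed through a drug arrest that the others had not. G1, S and G2 cells were sorted by DNA content from asynchronous HCT116 cultures without a block, and bulk cells were asynchronous and unsorted. Each of these HCT116 groups had 2 input and 2 pull-down libraries. Further asynchronous HCT116 lists came from 1000000 cells (1 input and 1 pull-down library) and from 200000 and 50000 cells (1 input and 2 pull-down libraries each). All came from established lines, and nothing in the labels says that paired libraries came from separate cultures.

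Each deposited list gave only the starts and ends of called regions, without keeping replicates apart and with no signal, counts or depth. Replicate error therefore could not be computed and no test between stages could be made, so all values below are descriptions. Their spread is given over chromosomes and over the 4 asynchronous HCT116 lists. The identity of the cells could not be checked against marker expression, since the lists hold none.

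LADs are long, gene-poor, AT-rich stretches that contact the lamina at the nuclear periphery. They are typically silent, late to replicate and rich in repressive histone marks, whereas the chromatin between them is gene-rich, GC-rich and mostly active in the nuclear interior. The lamina is taken apart in mitosis and rebuilt around the chromosomes as cells enter G1, so contacts have to be set up again in every cell cycle.

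The sequence of the shared nonLADs can be seen at the promoters of 3 of their genes, set beside 1 gene of a shared LAD. Each is the 150 bases before the start of the canonical transcript in hg19, 5′ to 3′ on the strand of the gene, with CpG dinucleotides in capitals. VAV2 stands for the longest stretch called in 90m G1 and in no other list of the 6 (chr9:136857447-136857596, minus strand). HMCN2 was longer in that stretch but had no canonical transcript in the annotation mapped to hg19, and VAV2 was taken in its place after this was seen. GIMAP8, a GTPase of the immunity-associated family, stands for the longest stretch called in all of G1, S, G2 and bulk (chr7:150147568-150147717, plus strand). CACNA1A, the pore-forming subunit of the P/Q-type calcium channel, stands for the longest shared nonLAD (chr19:13617294-13617443, minus strand). DIAPH2, a formin that acts on actin, lies in the longest shared LAD (chrX:95939691-95939840, plus strand).
VAV2: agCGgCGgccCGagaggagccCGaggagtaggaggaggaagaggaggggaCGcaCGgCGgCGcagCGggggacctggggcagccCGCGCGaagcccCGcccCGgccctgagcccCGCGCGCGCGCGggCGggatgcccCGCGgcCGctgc
GIMAP8: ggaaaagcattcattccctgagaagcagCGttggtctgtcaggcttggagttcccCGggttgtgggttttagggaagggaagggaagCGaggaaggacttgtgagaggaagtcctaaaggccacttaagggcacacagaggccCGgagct
CACNA1A: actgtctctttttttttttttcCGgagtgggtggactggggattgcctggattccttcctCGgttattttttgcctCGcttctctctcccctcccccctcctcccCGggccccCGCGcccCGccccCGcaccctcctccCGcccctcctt
DIAPH2: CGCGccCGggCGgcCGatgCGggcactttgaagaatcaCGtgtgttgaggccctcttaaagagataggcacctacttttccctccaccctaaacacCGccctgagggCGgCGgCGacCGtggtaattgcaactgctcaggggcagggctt
VAV2 had 24 CpGs and a GC content of 82%, CACNA1A had 9 and 62.7%, and GIMAP8 had 4 and 55.3%. DIAPH2, in the LAD, had 12 and 61.3%: more CpGs than CACNA1A and GIMAP8, and a higher GC content than GIMAP8, so single promoters did not sort by class.

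Over all genes the classes did separate. The 11008 promoters in shared nonLADs had a median of 13 CpGs (quartiles 6 to 19) in 150 bases, and 66.0% had at least 10. The 1386 promoters in shared LADs had a median of 6 (1 to 14), 39.4% had at least 10, and 12.7% had none, against 2.95% without a CpG in the nonLADs. All 19881 promoters with a canonical start had a median of 12. The interquartile ranges of the classes overlapped.

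The shared nonLADs were 0.1 to 19.9 Mb long, with a median of 1.1 Mb and quartiles of 0.5 and 2.2 Mb. Of the 383 regions, 176 were under 1 Mb, 10 were a single window, 20 were over 5 Mb and 26 reached a chromosome end. Unread or masked bases (N) made up most of 68 windows, 28 of them among the 32 windows on chromosome Y. The member chrY:1-2600000 was annotated with 15 protein-coding genes, so its N bases need not be an assembly gap. Regional GC content ran from 34.5 to 56.7%, with a median of 44.6%. Pooled GC content was 46.5% against 36.8% in shared LADs and 40.9% in all windows. The ratio of observed to expected CpG was 0.295, 0.183 and 0.236 in the same order. Protein-coding genes numbered 0 to 604 per region (median 11), and 13 regions held no whole gene. The median gene length was 20.05 kb in the shared nonLADs and 58.8 kb in the shared LADs. No member window overlapped any K562 LAD, which follows from how the lists were made and is only a check of them.

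These regions were spread unevenly over the karyotype. They took up 74.97% of chromosome 19 in 7 regions and 67.9% of chromosome 17, but 3.19% of chromosome 4. The longest was chr19:1-19900000, with 604 genes, among them CACNA1A, the transcription factor gene RFX2 and the G protein subunit gene GNG7. The next was chr19:43900001-57000000, with 462 genes, including the microtubule-associated kinase gene MARK4. The third was chr1:18600001-29600000, with 177 genes, including the translation factor gene EIF4G3, EPB41 (protein 4.1 of the membrane skeleton) and the ephrin receptor gene EPHB2.

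In 90m G1, 1305 of the 6458 member windows were called (20.2%), against 17% of all 30970 windows on the chromosomes, so the shared nonLADs were near the background at this time. In 180m G1, 28 member windows were called (0.434%, all windows 20.5%). G1 cells had 79 (1.22%, all windows 20.2%), S cells 39 (0.604%, all windows 22.4%) and G2 cells 23 (0.356%, all windows 20%). In each list after 90m G1 the members were therefore far below the background. Their share fell from 20.2 to 0.434% between 90m and 180m G1, whereas that of shared LADs went from 13.6 to 47.4% and that of the regions called in K562 by cTSA-seq only stayed at 27.3 and 27.4%.

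The bulk list had 285 called member windows (4.41%, all windows 26.9%). The other asynchronous lists had 29 at 1000000 cells (0.449%, all windows 21.2%), 35 at 200000 cells (0.542%, all windows 21.9%) and 70 at 50000 cells (1.08%, all windows 22.8%). The 4 lists of asynchronous HCT116 cells thus spanned 0.449 to 4.41%. G1 and S lay within that range, 180m G1 and G2 just below it and 90m G1 far above it. The differences among 180m G1, G1, S and G2 were smaller than that spread and no order can be read from them. The bulk list also covered the most windows of the whole genome, and the part of coverage in its larger share was not tested.

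**Figure D1:**
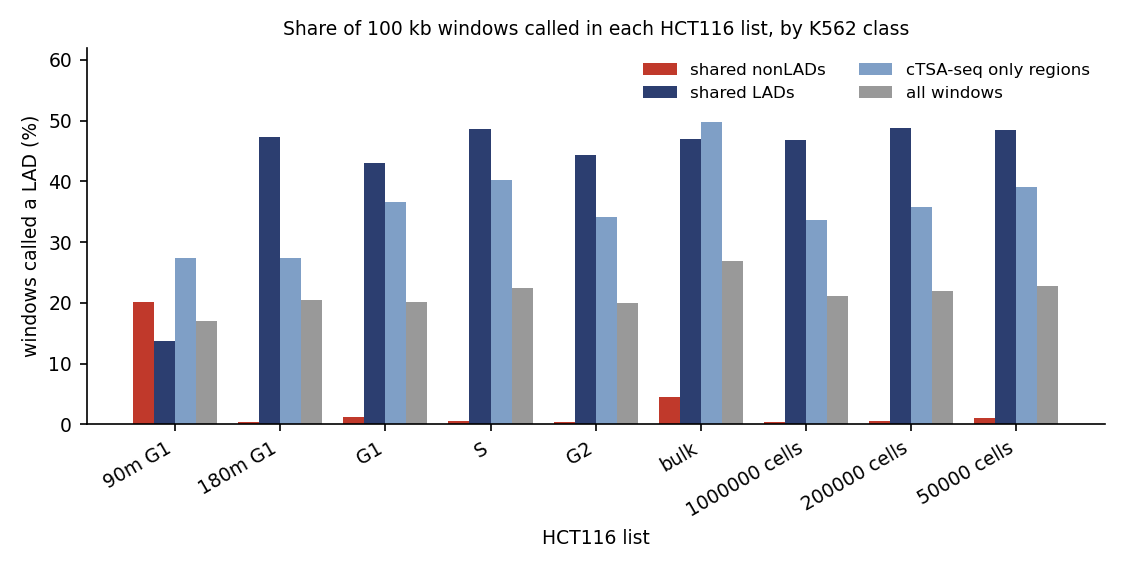
Share of 100 kb windows (y axis, %) called a LAD in each of 9 HCT116 lists (x axis), for windows of K562 shared nonLADs, K562 shared LADs, K562 cTSA-seq only regions and all windows of the chromosomes. Each bar is 1 merged list, without error bars. The shared nonLADs stand at 20.2% in 90m G1, above the 13.6% of shared LADs, and between 0.356 and 4.41% in the other lists.

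The drop after 90m G1 was seen on every chromosome that had 90m G1 calls. Member windows were called in 90m G1 on 20 of the 24 chromosomes, with a median of 21.6% and quartiles of 6.56 and 31.7%. The 20 include chromosome Y, where all 23 called windows were mostly N bases, so little can be read from it. Without Y the pooled 90m G1 share of the members was 19.95%. The 90m G1 share was higher than that of 180m G1 on 20 chromosomes and equal at 0 on 4. It was higher than that of G1 on 20 and lower on 2, and higher than that of bulk on 19 and lower on 1.

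Counted as regions, 125 of the 383 shared nonLADs (32.6%) had at least 1 called window in 90m G1, 63 of them in part and 62 over their whole length. It was 7 at 180 min and was 18 in the sorted G1 cells, 15 in S, 9 in G2 and 70 in the bulk list. Among the 482 shared LADs, 96 (19.9%) were touched in 90m G1 and 254 (52.7%) in 180m G1, the opposite direction. No call at all was made in any of the 6 lists in 232 shared nonLADs (60.6%) and in 5052 of their windows (78.2%). The share of all windows without a call in the 6 lists was not counted, so these values have no background beside them. With the 3 cell-number lists added, 230 regions were still without a call.

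Most member windows called at 90 min were called in none of the other 5 lists. Of the 1305 windows, 1103 (84.5%) were called in 90m G1 alone among the 6 lists. With 180m G1 they shared 18 windows, 1.38% of the 90m G1 windows and 64.3% of the 180m G1 windows. With G1 they shared 44 (3.37 and 55.7%), with S 23 (1.76 and 59.0%) and with G2 16 (1.23 and 69.6%). Bulk shared 202 windows with 90m G1, which were 70.9% of the bulk windows and 15.5% of the 90m G1 windows. Only 53 windows were called in bulk and in none of the other 5 lists. Windows are neighbours on the same chromosomes and are not independent, so these overlaps are counts only. The same shares were not counted for all 5275 windows called in 90m G1. Members were also rarely called in the other lists, which by itself keeps the overlap low. The 84.5% is therefore not read as a trait of the members.

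The called windows lay towards chromosome ends. Within 2 Mb of an end 313 of 558 member windows (56.1%) were called in 90m G1, and the share went down to 49.0% at 2 to 5 Mb, 37.9% at 5 to 10 Mb, 27.1% at 10 to 20 Mb, 7.998% at 20 to 40 Mb and 2.82% beyond 40 Mb. The 1072 member windows within 5 Mb were 16.6% of all member windows and held 43.3% of those called. Other chromatin was also called less often far from the ends. All windows of the genome were at 58.5% within 2 Mb, 59.4% at 2 to 5 Mb and 1.88% beyond 40 Mb, and shared LADs went from 95.7% (44 of 46) to 0.477%. In each distance class up to 40 Mb the members had a smaller share than all windows of that class. Their pooled share of 20.2% was nevertheless above the pooled 17%, and 16.6% of them against 7.79% of all windows lay within 5 Mb of an end. Windows of mostly N bases numbered 68 among the members and 2308 among all windows. Without them the member share was 19.8%, and the share of all windows was not recomputed.

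In bulk the member share also went down with distance, from 12.7% within 2 Mb and 13.6% at 2 to 5 Mb to 1.05% beyond 40 Mb. In G1 it was 1.79, 5.64 and 2.299% in the 3 classes nearest the end, 0.173 and 1.32% in the next classes, and 0 beyond 40 Mb. In 180m G1 no class exceeded 1.56%. By chromosome midpoint, 15.1% of member windows on the side of the lower coordinates and 24.8% on the side of the higher coordinates were called in 90m G1. These shares were not counted for all windows, so the difference is not read as a trait of the members.

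**Figure D2:**
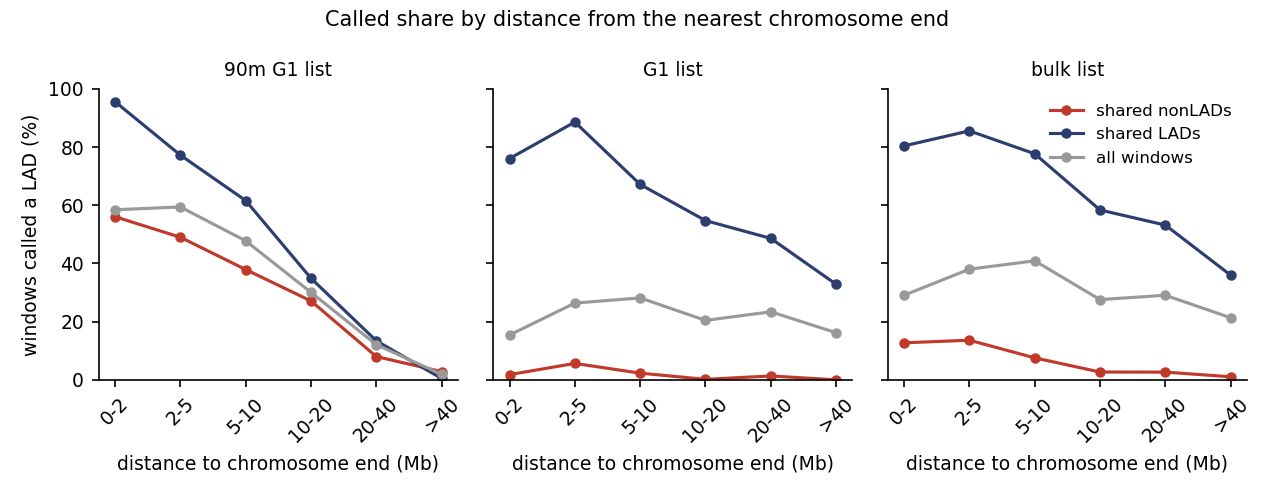
Share of windows called (y axis, %) by distance to the nearest chromosome end (x axis, Mb, in 6 classes) in the 90m G1, G1 and bulk lists, for shared nonLADs, shared LADs and all windows. In 90m G1 the shared nonLADs fall from 56.1 to 2.82%, the shared LADs also fall at each step, and all windows stand at 58.5 and 59.4% in the classes nearest the end before they fall; in G1 the shared nonLADs stay at or below 5.64%.

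The regions that reach a chromosome end were also often called. Of the 26, 20 had a call in 90m G1, 16 in their terminal window, and 9 were called over their whole length. The 9 include chr6:1-100000, a single window of mostly N bases. The 20 include chrY:1-2600000, whose windows were all mostly N bases. On chr12:1-2100000 and chr16:1-5200000 only the terminal window was called. In 180m G1, G1, S and G2 none of the 26 terminal windows was called. In bulk 11 of the 26 had a call, 3 in the terminal window. Members called end to end in 90m G1 included chr11:1-4200000, chr7:1-3100000, chr16:86900001-90354753, chr2:241400001-243199373 and chr5:175500001-180915260. The end regions chr19:1-19900000, chr20:1-1500000 and chr21:43200001-48129895 had no call at 90 min, and chr16:1-5200000, with 198 genes, was called over 1.92% of its windows.

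Chromosomes differed widely. In 90m G1 chromosome Y had a member share of 71.9% (23 of 32 windows). All 23 lay in chrY:1-2600000, where all 26 windows were mostly N bases, so Y is not ranked with the others. Among the other chromosomes the highest shares were 47.3% on X, 44.3% on 4, 42.6% on 5 and 40.9% on 9. The share was 0 on chromosomes 19 (444 windows), 20 (222 windows), 21 (97 windows) and 22 (261 windows), and 1.76% on 15, 2.90% on 17 and 7.78% on 18. These 7 chromosomes, grouped after their values were seen, held 1949 member windows, of which 28 (1.44%) were called in 90m G1, against 1277 of 4509 (28.3%) on the other 17. Within 5 Mb of an end the shares were 4.24 and 76.6%. Over all their windows, members included, 5.29% were called in 90m G1 on these 7 chromosomes, against 19.2% on the others. Outside the members, their shared LAD windows were also lower, at 6.63 against 14.1%. In G1 their shared LADs were called over 73.6% of windows, against 41.0% on the others, and their members over 1.44 against 1.13%.

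**Figure D3:**
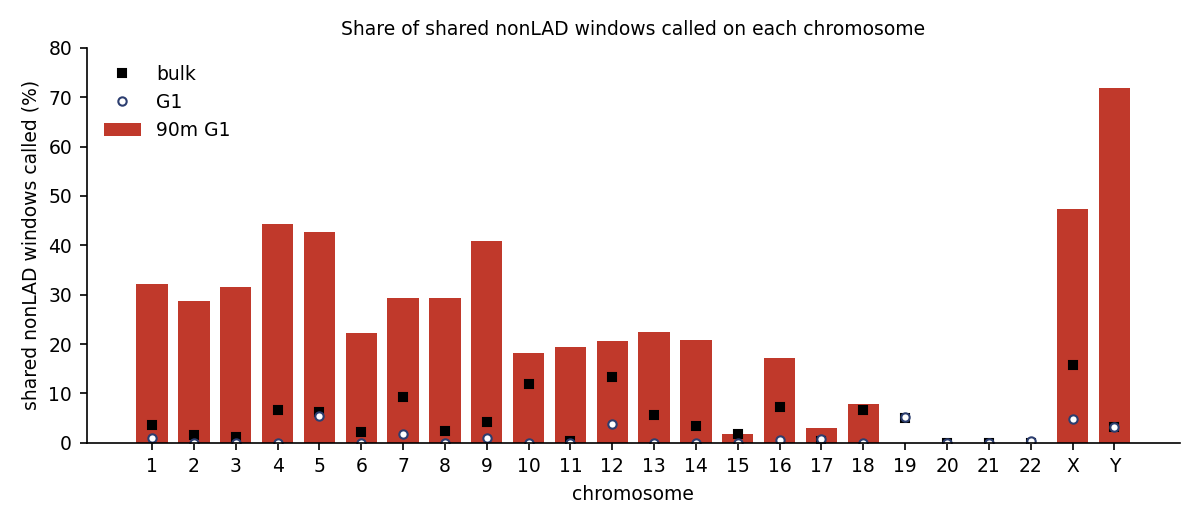
Share of shared nonLAD windows called (y axis, %) on each chromosome (x axis) in 90m G1 (bars), bulk (squares) and G1 (circles). The 90m G1 bars run from 0 on chromosomes 19 to 22 to 71.9% on Y, where 28 of 32 windows are mostly N bases. The G1 circles stay at or below 5.38%.

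Counted by windows, smaller regions had somewhat larger called shares in 90m G1. Counted as regions with any call they did not: 30.1% up to 0.5 Mb, 40% at 2 to 5 Mb and 35% over 5 Mb. The class over 5 Mb includes long regions of chromosomes 7, 10, 11, 17, 19, 20 and 22 without a 90m G1 call. The parts of size and of chromosome were not told apart. Regions up to 0.5 Mb had 28.7% of their windows called in 90m G1 and regions over 5 Mb had 13.1%, with 20.4 to 26.1% between. In bulk the range was from 9.37% in the smallest to 3.602% in the largest class. Of the longest members, the chromosome 1 region was called over 43.6% of its windows in 90m G1 and over none in the other 8 lists. The longest chromosome 19 region was at 0 in all 6 lists and at 2.51% in the list of 50000 cells.

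**Figure D4:**
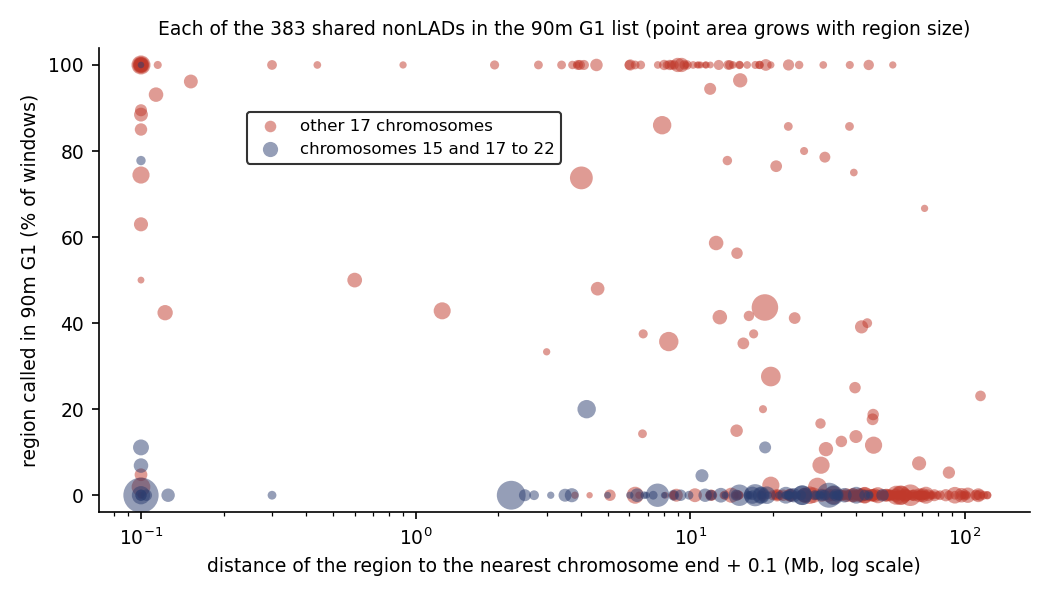
Each point is 1 of the 383 shared nonLADs, placed by its distance to the nearest chromosome end plus 0.1 Mb (x axis, log scale) and by the percentage of its windows called in 90m G1 (y axis); point area grows with region size. In all, 258 regions sit at 0 and 62 at 100%, and the regions of chromosomes 15 and 17 to 22 lie at or below 20%, except the end regions of chromosomes 15 (100%) and 18 (77.8%).

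The calls were also set beside the borders of the K562 regions. In 90m G1 windows next to a border were called at 25.8%, and windows at least 11 windows inside at 15.0%. At 740 borders the 90m G1 state was the same on both sides in nearly all cases: both windows were called at 173, neither at 545, only the inner at 8 and only the outer at 14. In bulk the border windows were called at 10.8% and the innermost at 2.34%, with both windows called at 80 borders, only the outer at 37 and only the inner at 1. In G1 the outer window alone was called at 19 borders, the inner alone at 3, both at 14 and neither at 704. Neighbouring windows inside or outside a called region share its state. Agreement across a border is therefore largely built in, and it does not set 90m G1 apart. Of the 204 regions called in 90m G1, 101 (49.5%) touched a shared nonLAD, 28 of these also held a shared LAD window, and 24 lay wholly inside shared nonLADs. In 180m G1, 8 of 377 called regions touched one.

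Member windows called in 90m G1 were richer in GC than the others, at 49.3 against 45.8%, and had fewer gene starts, at 15.1 against 17.8 per Mb. The comparison was repeated at equal distance from the end. GC was 52.7% in called and 50.0% in uncalled windows within 2 Mb, 49.8 and 50.1% at 2 to 5 Mb, 46.8 and 46.5% at 10 to 20 Mb, and 49.3 and 44.6% beyond 40 Mb, where 51 windows were called. It was 48.7 and 47.2% at 5 to 10 Mb and 48.0 and 45.2% at 20 to 40 Mb, so the larger gaps lay within 2 Mb of the end and beyond 20 Mb. Gene starts were fewer in called windows in 5 of the 6 classes, for example 13.3 against 22.6 per Mb at 2 to 5 Mb and 13.9 against 22.3 at 5 to 10 Mb. At 20 to 40 Mb they were 17.5 and 16.7. Chromosomes were not matched in this comparison. All 444 member windows of chromosome 19 were uncalled, and its longest region held 30.4 genes per Mb. The part of such chromosomes in the difference was not tested. Promoters in called windows had a median of 16 CpGs (1938 promoters) and those in uncalled windows 13 (9070 promoters).

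**Figure D5:**
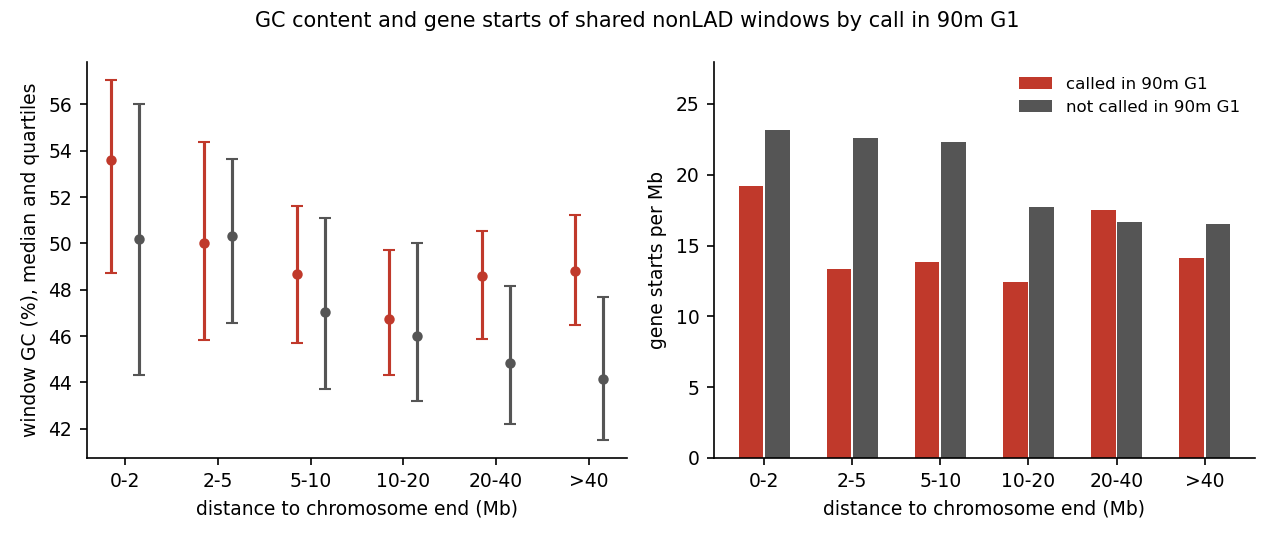
Left, GC content of shared nonLAD windows (y axis, %, median with quartiles) by distance to the chromosome end (x axis, Mb), for windows called and not called in 90m G1. Right, gene starts per Mb (y axis) for the same windows. The GC quartiles overlap in every class, and gene starts are fewer in called windows in all classes but 20 to 40 Mb.

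Member windows called in the other lists, many of them also called in 90m G1, differed in GC content. The 28 windows called at 180 min had a GC content of 41.4%, the G1 windows 44.7%, the S windows 44.2% and the G2 windows 42.0%. All 4 values were below the 46.5% of the members as a whole, while the 285 bulk windows had 48.5%. The 14 windows called in all of G1, S, G2 and bulk had 41.6%.

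The longest stretch of member windows called in 90m G1 was chr5:175500001-180915260, with 86 genes. It holds COL23A1 (a transmembrane collagen), ADAMTS2 (the procollagen N-proteinase) and NSD1 (a histone H3 lysine methyltransferase). It was called over 100% in 90m G1, 0 in 180m G1, 21.8% in G1, 9.09% in S, 5.45% in G2 and 23.6% in bulk. Next came chr9:132800001-137300000, with 63 genes including HMCN2, VAV2 and the Mediator subunit gene MED27, and chr11:1-4200000, with 97 genes including the potassium channel gene KCNQ1, the calcium sensor gene STIM1 and the nucleoporin gene NUP98. Both were called over their whole length in 90m G1 and over none of it in the other 8 lists. The same was true of chr16:86900001-90354753, with 52 genes including C16orf95, the chromatin regulator gene ANKRD11 and BANP, which encodes a nuclear-matrix-associated DNA-binding protein. In all, 148 stretches were called in 90m G1, and 133 stretches were made of windows called in no other of the 6 lists.

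Few stretches of members were called in later lists, and those below are examples. The 180m G1 list had 8 stretches of up to 0.8 Mb, the G1 list 22 of up to 1.2 Mb, the S list 17 of up to 0.5 Mb and the G2 list 10 of up to 0.4 Mb. Only 4 windows, in 1 stretch, were called in all 6 lists: chr7:150100001-150500000, with 10 genes of which GIMAP8, GIMAP5 and the readthrough gene GIMAP1-GIMAP5 were the longest. It was called over 75% at 1000000 cells, 50% at 50000 cells and 0 at 200000 cells, so its call varied among asynchronous lists too. The GIMAP cluster encodes GTPases known for their part in lymphocyte survival.

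Other stretches had patterns of their own. The region chr9:25600001-25900000, a region of 36.4% GC with TUSC1, was not called in 90m G1 and was called over 100% in the other 8 lists. The region chr16:8000001-8200000, with no protein-coding gene, followed the same pattern. Near the end of chromosome X lay chrX:151000001-151800000, with GABRA3 and GABRE (subunits of the GABA-A receptor) and the cancer-testis antigen genes MAGEA4 and MAGEA10. It was called over 100% in 90m G1, 180m G1 and bulk, 87.5% in G1, 50% in G2 and 0 in S. The stretch chr12:114000001-114300000 was called in 90m G1, 180m G1, S and bulk but in neither G1 nor G2. On chromosome 5, chr5:178300001-178600000 was called over 100% in 90m G1, G1, S, G2 and bulk and 0 in 180m G1. It holds the zinc finger genes ZFP2, ZNF454, ZNF354C and ZNF879 and GRM6, the glutamate receptor of retinal bipolar cells. Stretches called mainly in 90m G1 and bulk were longer: chr10:133700001-135534747 (31 genes) was called over 89.5% in 90m G1, 100% in bulk and 5.26% in 180m G1, and chr12:131200001-133800000 (28 genes) over 96.2% in 90m G1, 100% in bulk and 30.8% in G1. The stretches on chromosomes 10, 12, 16 and X were chosen here after their values were seen.

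Zinc finger genes named ZNF, most of which encode DNA-binding repressors and sit in clusters, made up much of what was called in G1. Of 508, 356 (70.1%) lay in shared nonLADs, against 54.6% of all protein-coding genes, and 206 of the 356 were on chromosome 19. In 90m G1, 43 of the 356 (12.1%) were in called member windows and none of these was on chromosome 19, beside 1919 of 11002 (17.4%) for all member genes and 17.2% for all genes of the genome. In G1, 51 were called, 38 of them on chromosome 19, and they made up 51.5% of the 99 genes in called member windows, while they were 3.24% of all member genes. Bulk had 54 (15.2% of 355 genes), S 15 of 41, G2 10 of 27 and 180m G1 1 of 29. The other asynchronous lists had 5 of 20 genes at 1000000 cells, 37 of 52 at 200000 cells and 69 of 111 at 50000 cells, so the count varied widely between lists of the same cells. The longer G1 stretches on chromosome 19 were chr19:36900001-37700000 (15 genes, among them ZNF420 and ZNF568), chr19:53600001-54300000 (14 genes, among them ZNF331 and ZNF765), chr19:37800001-38200000 and chr19:58400001-58700000. The shortest was chr19:56900001-57000000, with ZNF667 and ZNF583, also called in S, in bulk and at 1000000, 200000 and 50000 cells. All were at 0 in 90m G1 and 180m G1. These genes are near-identical in places, and how reads that map to several copies were treated could not be examined from the lists.

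Olfactory receptor genes are a clustered family of odorant receptors, of which 50 of 414 (12.1%) were in shared nonLADs and 90 in shared LADs. In the members 6 of the 50 were called in 90m G1 and 0 in the other 5 lists of the 6. Of 64 replication-dependent histone genes, which supply histones in S phase, 61 lay in shared nonLADs and 2 of these, H2AC25 and H2BC26, were called in 90m G1. HOX genes, the developmental patterning factors, had 19 of 39 in shared nonLADs and 0 called in 90m G1. Over all protein-coding genes 54.6% lay in shared nonLADs and 17.4% of these were called in 90m G1, so the share of HOX genes in members and the called share of olfactory receptor genes were near those of genes in general.

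The housekeeping lists had 65 to 90% of their genes in shared nonLADs, beside 54.6% of all genes, and their called counts in 90m G1 stand beside 17.4% of all member genes. Of 86 ribosomal protein genes 57 were members and 12 were called in 90m G1, among them RPL22, RPL32, RPS14, RPL26L1, RPL8 and RPL12. RPL22 was also called in bulk. Of 39 proteasome genes 28 were members and 5 were called (PSMD1, PSMD2, PSMB1, PSMB7 and PSMD13). Of 20 nuclear speckle and splicing genes 18 were members and 1, SF3A3, was called. Of 12 RNA polymerase II subunit genes 10 were members and POLR2H and POLR2L were called. Of 20 cytosolic aminoacyl-tRNA synthetase genes 13 were members, CARS1 and WARS1 were called in 90m G1 and NARS1 in bulk. None of these genes was called in 180m G1, G1, S or G2.

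Genes tied to the cell types and to the cycle gave small counts. Of 20 erythroid genes, a marker set for the K562 lineage, 12 were members and 2 were called in 90m G1: ZFPM1 (a GATA1 cofactor) and TFRC (the transferrin receptor). Of 18 intestinal epithelial genes 11 were members and 3 were called: VIL1 (villin), CDX1 (an intestinal transcription factor) and MUC2 (the main gut mucin). Of 15 immediate early genes 13 were members and 2 were called, DUSP1 and MYC. Of 9 cell cycle and replication genes 5 were members and CDT1, a replication licensing factor, was called. In these lists no member gene was called in 180m G1, G1, S, G2 or bulk. All these counts stand beside the 17.4% of member genes called in 90m G1, and with so few genes in each list no difference from it was tested.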

How the data were processed

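Lamin-B1 cTSA-seq was described from lists of regions deposited by the authors for K562 and HCT116 cells. According to the study's methods, reads were aligned to hg19 with Bowtie 2 (Bowtie2 2.3.2 and bedtools 2.26.0 in the submitters' processing notes), counted in windows, scaled to a common total, expressed as log2 of pull-down over input and as a z-score, divided by a 3-state hidden Markov model into enriched, intermediate and depleted states, and intersected between replicates. The deposited lists hold region starts and ends only, in bp, all on 100 kb windows; depth is unknown. Unlike the others, the names of the 90m and 180m G1 lists do not mark them as a consensus of replicates.

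Each of 30970 windows was marked as called or not in each list with Python 3.11.15, numpy 2.4.6 and pandas 2.3.3 (plots with matplotlib 3.10.9). Shares, borders, distances and overlaps were counted. The counting code was tested on simulated data. GC and CpG content leave out N bases. Genes are 20162 protein-coding genes of GENCODE release 44 in hg19 coordinates, in a class if at least 80% of their length lies in it. The regions named were the 3 longest of each kind, with all their genes if at most 5 and otherwise the 3 longest, and up to 6 called genes per list in order of position; others are marked as chosen after their values were seen, as are the later stretches. The regions, gene lists and comparisons were chosen with earlier results of these data known. No test was run. The SLAM-seq, mouse and RPE1 data were not analysed here.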

Additional observations from a re-analysis of the deposited data

How the results depend on the processing

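The share of member windows called was recomputed under other settings, with 209 alternative values. A 95% Wilson interval served only as a yardstick, since it treats windows as independent, which they are not. Of the alternative values, 177 stayed within this interval of the reported share or, for counts, within 1.5 times the reported count. The others follow. For 90m G1 (20.2%) the share was 19.2% in regions of at least 1 Mb, 28.3% without chromosomes 15 and 17 to 22 (chosen after seeing the data), and 18.8 to 21.8% with each chromosome left out. For 180m G1 (0.434%) it was 0.287% on autosomes and 0.285 to 0.486% over left-out chromosomes, the lowest without X. For S (0.604%) it was 0.403% without border windows and 0.442 to 0.660% over left-out chromosomes. G1 (1.22%) ranged from 0.931 to 1.31% and G2 (0.356%) from 0.285 to 0.389%. For bulk (4.41%) it was 3.56% without border windows, 3.79% in regions of at least 1 Mb, 5.54% without chromosomes 15 and 17 to 22, 3.90 to 4.79% over left-out chromosomes, and 0.449, 0.542 and 1.08% in the lists of 1000000, 200000 and 50000 cells. Regions called over at least 50% of their length numbered 86 in 90m G1 (125 with any call), 3 in 180m G1, 4 in G1, 4 in S, 2 in G2 and 21 in bulk. Regions called over all of it numbered 62 in 90m G1, 2 in 180m G1, 3 in G1, 3 in S, 2 in G2 and 11 in bulk. With genes of all types 26852 lay in members and 4691 in members called in 90m G1. The 90m G1 share near ends (52.7% within 5 Mb) was 56.1% within 2 Mb and 47.4% within 10 Mb. The cause of these shifts was not tested.

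No paired analysis was possible because the lists do not keep replicates apart. Without signal or counts, a window just below a call cannot be told from one far below it. The 90m G1 and 180m G1 cells alone passed through nocodazole, so release time and recovery from the drug cannot be told apart. K562 cells were not sorted by stage, so within a list a stage difference and a difference between the cell lines cannot be told apart. The 4 asynchronous lists spread from 0.449 to 4.41%, and smaller differences between lists are not read as changes.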
